A study of Mus musculus with 9 samples.

Results

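Decr2 and 5 related enzymes (Decr1, Pecr, Eci1, Eci2 and Ech1) were followed in B16.SIY cells. The set holds dienoyl-CoA reductases, enoyl-CoA and dienoyl-CoA isomerases and an enoyl-CoA reductase (Pecr) of mitochondria and peroxisomes. B16.SIY is a mouse melanoma line from C57BL/6 in which the peptide antigen SIY is expressed as a fusion with dsRED, a red fluorescent protein. The enzymes were chosen by name and function, with earlier results of these data known. All 6 of 6 were found among the 10762 genes of the deposited table, each with a value in every library. Each group was a stable line made by lentiviral infection and puromycin selection, and each had 3 libraries, numbered 0, 1 and 2. The first group carried a control hairpin (SHC002), the second a hairpin against Decr2 called shRNA1, and the third another hairpin against Decr2 called shRNA2. All 9 libraries therefore share the antigen, the virus and the selection, and differ by label in the hairpin alone. The labels do not say whether a line was a clone or a pool, which promoter drove the hairpin, or whether the 3 libraries came from separate cultures. The p-values below therefore reflect only how much these libraries vary, and that variation may be technical. In the table the hairpins appear under codes, which were linked to shRNA1 and shRNA2 through the authors' own headed fold changes. If those headings were exchanged, the names of the hairpins below would be exchanged too.

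Unsaturated fatty acids carry double bonds that the standard cycle of β-oxidation cannot pass, because its hydratase needs a trans double bond at the second carbon. Auxiliary enzymes remove this block: enoyl-CoA isomerases move a double bond into place, a dienoyl-CoA isomerase shifts a pair of double bonds, and 2,4-dienoyl-CoA reductases use NADPH to turn a conjugated pair into a single double bond. Mitochondria and peroxisomes each hold a set, and the peroxisomal set serves very long and polyunsaturated chains. Pecr, which reduces trans-2-enoyl-CoA, carries out none of these steps.

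Coordinates are those of GENCODE M21 on GRCm38, which may not be the build the authors used. All 6 genes are protein-coding. Decr2 (ENSMUSG00000036775), the peroxisomal 2,4-dienoyl-CoA reductase, spans positions 26081208 to 26090337 of chromosome 17, minus strand, with 7 to 9 exons in its coding transcripts. Decr1 (ENSMUSG00000028223), its mitochondrial counterpart, spans 15917240 to 15945507 of chromosome 4, minus strand. Pecr (ENSMUSG00000026189), the peroxisomal trans-2-enoyl-CoA reductase, spans 72259167 to 72284314 of chromosome 1, minus strand. Eci1 (ENSMUSG00000024132), a mitochondrial enoyl-CoA isomerase, spans 24426641 to 24439348 of chromosome 17, plus strand. Eci2 (ENSMUSG00000021417), an enoyl-CoA isomerase found in peroxisomes and mitochondria, spans 34977748 to 35027096 of chromosome 13, minus strand. Ech1 (ENSMUSG00000053898), a dienoyl-CoA isomerase of both organelles, spans 28825217 to 28832247 of chromosome 7, plus strand. An annotated lincRNA (D230017M19Rik) overlaps Pecr and an antisense gene (Gm16984) overlaps Eci2. These overlaps were taken from whole gene extents, and whether the genes share exon sequence was not examined. The strand setting of the authors' counting is not given in the sources used here. Whether reads of these overlapping genes were kept apart is therefore unknown.

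RefSeq promoter windows of GRCm38.p6 (250 bases before to 50 after the annotated start) were matched for 5 of the 6 genes. The GC box GGGCGG, searched on both strands, was present in all 5 windows (35.7% of 32851 windows hold it), and the member windows were 52.3% to 64.3% G and C against a median of 52.7% over all windows. The box whose first base lies nearest before the start is shown with its neighbouring bases for Decr2, Pecr and Ech1. Pecr and Ech1 are the 2 other enzymes that passed the test described below. The Pecr box begins 4 bases before the start and runs across it. Each line reads 5′ to 3′ on the strand of the gene, with the box in capitals, which appears as CCGCCC where it lies on the other strand.
Decr2: cccccgtctgatGGGCGGcttgatgtgggg
Pecr: acgcggacttagGGGCGGggtctgtttggt
Ech1: gaacgttcgtgcCCGCCCcctaagtttttc
These stretches lie at chr17:26090169-26090198 (minus strand), chr1:72284308-72284337 (minus strand) and chr7:28825295-28825324 (plus strand). Those of Decr2 and Ech1 fall inside the GENCODE extent of their genes, since longer transcripts start further upstream. CCAAT was found in the windows of Pecr and Eci2 (37.4% of all windows). No member window held AGGTCA, the unit of nuclear receptor sites (16.3% of all windows), or its direct repeat with 1 base between, to which PPAR and RXR bind (0.0396%). Nor did any hold the amino acid response element TGATGNAA (3.97%) or the E box CACGTG (7.15%), where N is any base. These matches describe letters in the windows and no binding.

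The libraries were broadly alike. Correlations across genes were between 0.966 and 0.994 within groups and between 0.955 and 0.988 between groups. The number of reads is unknown. All 10 melanocyte markers examined were listed in the table (Mitf, Pmel, Tyr, Tyrp1, Dct, Mlana, Sox10, Gpnmb, Slc45a2 and Oca2), against 1 of 10 leukocyte, 0 of 9 myeloid, 3 of 8 fibroblast, 1 of 6 endothelial, 0 of 6 epithelial and 0 of 5 erythroid markers. The summed melanocyte marker level (2 to the power of the log2 values) ranged from 21982 to 25108 with the control hairpin, 15622 to 23976 with shRNA1 and 15805 to 28733 with shRNA2, and its part in the results below was not tested. In the mean of both hairpins the median difference of these markers was -0.25, with 1 of 10 above 0. The test was passed by 0 of 10, where 17.6% of all genes passed in either direction. Under the replicate block, which compares libraries of the same number, 2 fell, where 30.3% of all genes passed. Without the 3 libraries numbered 0, 9 fell, where 41.4% of all genes passed. It is not stated whether the deposited log2 values were scaled for transcript length, so levels are compared between libraries for each gene and not between genes.

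The targeted gene came first. Decr2 mRNA was lowest with shRNA2, intermediate with shRNA1 and highest with the control hairpin, with no overlap between any of the groups. Its log2 values were 3.96, 4.10 and 3.71 in control libraries 0, 1 and 2, then 2.87, 2.51 and 3.18 with shRNA1, and 0.84, 1.18 and 1.55 with shRNA2. Decr2 fell with each hairpin by the limma test, with 47.6% of the control level left with shRNA1 (95% interval 33.4% to 68.0%, adjusted p = 0.0195) and 15.0% with shRNA2 (10.5% to 21.5%, adjusted p = 0.000568). In bulk RNA, fewer cells with the transcript and less transcript per cell cannot be told apart. Set against the control of the same number, the loss with shRNA1 ran from -0.53 (number 2) to -1.59 (number 1) on the log2 scale, and with shRNA2 from -2.16 (number 2) to -3.12 (number 0). That of shRNA1 missed the threshold on leaving out control replicate 1 (limma adjusted p = 0.0872), control replicate 2 (0.0537) or, among its own libraries, replicate 1 (0.0579).

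The nearest measured genes on either side of Decr2 did not fall. Nme4, a nucleoside diphosphate kinase gene on the same strand, lies upstream, with 1397 bases between its 3′ end and the start of Decr2. Its log2 values were 4.53, 4.81 and 4.85 with the control hairpin, 4.73, 4.84 and 4.80 with shRNA1, and 4.49, 5.13 and 4.83 with shRNA2, so the groups overlapped, and its differences were 0.05 (SE 0.16, adjusted p = 0.85) and 0.08 (SE 0.16, adjusted p = 0.778). Rab11fip3, a Rab11 effector 11653 bases away on the other side, rose with shRNA1 by 0.34 (SE 0.08, limma adjusted p = 0.028) and was 0.28 higher with shRNA2 (adjusted p = 0.0564).

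**Figure D1:**
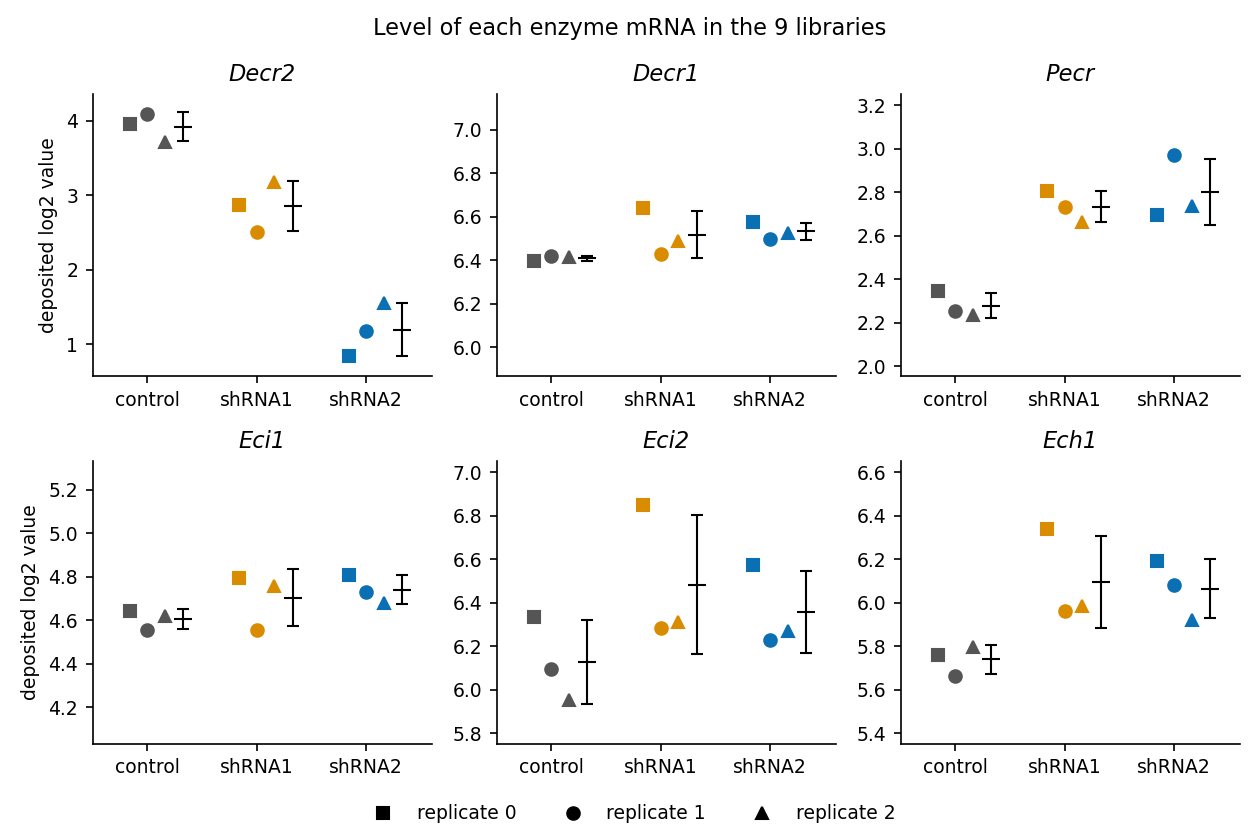
Deposited log2 value of each enzyme (y axis) in the control, shRNA1 and shRNA2 libraries (x axis); symbols mark the replicate number and black bars the group mean with its SD (n = 3). The Decr2 axis spans a wider range than the other 5. Decr2 separates into 3 levels, and Eci2 is highest in the libraries numbered 0. Decr1, Pecr and Ech1 stand above all controls in every hairpin library, as do 12% of all genes.

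Decr1, the mitochondrial 2,4-dienoyl-CoA reductase, did not pass the test with either hairpin. Its log2 values were 6.40, 6.42 and 6.42 in the control libraries, 6.64, 6.43 and 6.49 with shRNA1, and 6.57, 6.50 and 6.53 with shRNA2. All 6 hairpin libraries lay above the 3 controls, whose SD was 0.012, but library 1 of shRNA1 exceeded its own control by 0.01. The difference was 0.11 with shRNA1 (95% interval -0.05 to 0.27, limma adjusted p = 0.361) and 0.12 with shRNA2 (-0.04 to 0.29, adjusted p = 0.294), which bounds an increase at 1.21-fold and 1.22-fold.

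Pecr, which reduces trans-2-enoyl-CoA with NADPH in peroxisomes and also acts in phytol breakdown, had the largest difference of the 5 enzymes other than Decr2 in the values as deposited. Under quantile normalisation it stood below Ech1 and Eci2 in the mean of both hairpins (0.30 against 0.35 and 0.32). Its log2 values were 2.35, 2.25 and 2.24 in the control libraries, 2.81, 2.73 and 2.66 with shRNA1, and 2.69, 2.97 and 2.74 with shRNA2. Every hairpin library lay above every control, and the hairpin groups overlapped each other. Pecr rose with shRNA2 by 0.52 (SE 0.13, limma adjusted p = 0.0326), a fold of 1.44 (95% interval 1.17 to 1.76). With shRNA1 it was 0.46 higher (SE 0.13), a fold of 1.37 (1.12 to 1.68), which missed the threshold at an adjusted p of 0.0512. The replicate block gave an adjusted p of 0.0389 for shRNA1. In the mean of both hairpins Pecr rose by 0.49 (SE 0.11, adjusted p = 0.0188). Against the control of the same number it was higher by 0.43 to 0.48 with shRNA1 and by 0.35 to 0.72 with shRNA2. The call in the mean was lost under quantile normalisation (0.30, adjusted p = 0.102) and when control replicate 1 or 2 was left out (0.0837 and 0.0862). The shRNA2 call was lost without any 1 of 7 libraries, among them control replicates 0, 1 and 2 (adjusted p = 0.051, 0.109 and 0.112), and under quantile normalisation (0.14). The 4 others were shRNA1 replicates 1 and 2 (0.0516 and 0.0519) and shRNA2 replicates 1 and 2 (0.117 and 0.0866).

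Ech1, which isomerises dienoyl-CoA, was also higher in every hairpin library than in every control. Its log2 values were 5.76, 5.66 and 5.79 in the control libraries, 6.34, 5.96 and 5.98 with shRNA1, and 6.19, 6.08 and 5.92 with shRNA2. Library 0 was the highest in each hairpin group and not in the controls. Neither single comparison passed, at 0.36 (SE 0.11, limma adjusted p = 0.0752) with shRNA1 and 0.32 (SE 0.11, adjusted p = 0.0963) with shRNA2. In the mean of both hairpins Ech1 rose by 0.34 (SE 0.10, adjusted p = 0.044), a fold of 1.27 (95% interval 1.08 to 1.48). With the replicate block both single comparisons passed (adjusted p = 0.0234 and 0.0339). The call in the mean was close to the threshold. It was lost with centred libraries (0.052), quantile normalisation (0.0568) or no intensity trend (0.0556). It was also lost when any control was left out (0.0925, 0.177 and 0.115 for numbers 0, 1 and 2), when shRNA1 replicate 2 was (0.051), and when shRNA2 replicate 0 or 1 was (0.0714 and 0.0867).

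Eci1 and Eci2, which move a double bond from the third to the second position, did not pass in any of these comparisons. Eci1 had log2 values of 4.64, 4.56 and 4.62 in the control libraries, 4.80, 4.56 and 4.76 with shRNA1, and 4.81, 4.73 and 4.68 with shRNA2. Library 1 of shRNA1 lay below all controls and the other 5 hairpin libraries above them. The difference was 0.10 with shRNA1 (95% interval -0.10 to 0.30, limma adjusted p = 0.513) and 0.13 with shRNA2 (-0.07 to 0.33, adjusted p = 0.366).

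Eci2 had log2 values of 6.34, 6.10 and 5.95 in the control libraries, 6.85, 6.29 and 6.31 with shRNA1, and 6.58, 6.23 and 6.27 with shRNA2. The groups overlapped, because the control numbered 0 exceeded 4 of the 6 hairpin libraries. The difference was 0.35 with shRNA1 (95% interval -0.03 to 0.73, limma adjusted p = 0.202) and 0.23 with shRNA2 (-0.15 to 0.61, adjusted p = 0.405). Each value rested in part on library 0 of its own hairpin, being 0.17 without shRNA1 replicate 0 and 0.12 without shRNA2 replicate 0, and that of shRNA2 was 0.14 without control replicate 2. Compared within each number, Eci2 was higher than its control in 6 of 6 hairpin libraries, by 0.14 to 0.52. With the replicate block it rose with shRNA1 (adjusted p = 0.0143) and in the mean of both hairpins (0.0139) and missed the threshold with shRNA2 (0.064). Without the 3 libraries numbered 0 it rose with shRNA1 by 0.27 (0.0143) and with shRNA2 (0.0277). Eci3, a close paralog of Eci2, was not listed in the table.

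**Figure D2:**
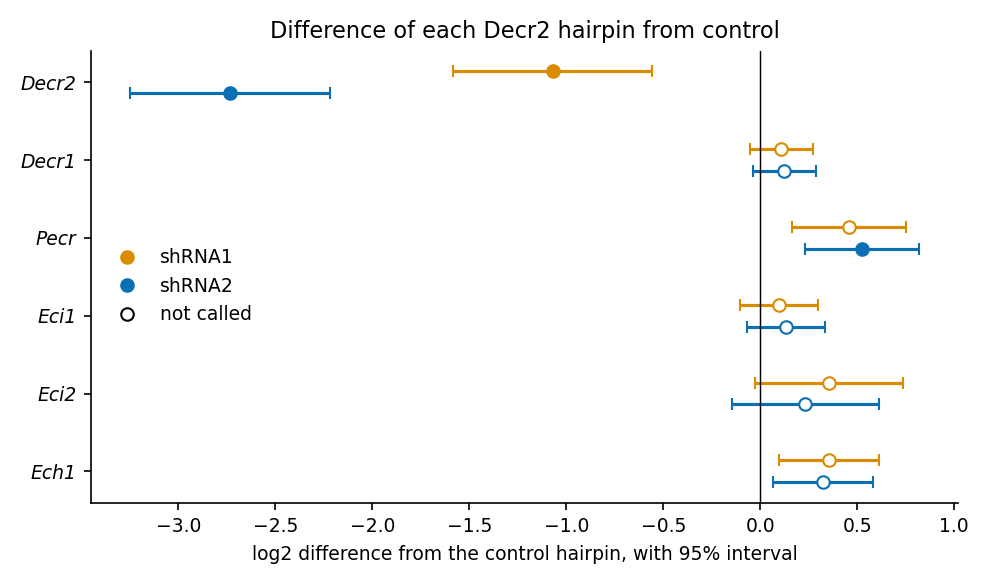
Log2 difference of each enzyme from the control hairpin (x axis) with its 95% interval, for shRNA1 and shRNA2; filled points passed an adjusted p of 0.05. Decr2 lies far to the left with both hairpins, and Pecr with shRNA2 is the filled point to the right of 0.

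Counted together, 1 of the 6 enzymes passed with shRNA1 (Decr2, lower), where 12.4% of all genes passed (6.92% higher and 5.49% lower). With shRNA2, 2 passed (Decr2 lower, Pecr higher) against a background of 12.9% (7.27% higher and 5.67% lower). In the mean of both hairpins 3 passed (Decr2 lower, Pecr and Ech1 higher), with a background of 17.6% (9.69% higher and 7.89% lower). The replicate block gave 4 with shRNA1, 3 with shRNA2 and 4 in the mean, where 24.6%, 24% and 30.3% of all genes passed. Beside Decr2 these were Pecr, Ech1 and Eci2 with shRNA1 and in the mean, and Pecr and Ech1 with shRNA2. Without the 3 libraries numbered 0, 4 passed in each comparison with control, where the background was 34.5%, 37.3% and 41.4%. With library weights 4 passed with each hairpin, where the background was 46.8% and 40.9%. Leaving out control replicate 1 or 2 left 0 with shRNA1, 1 with shRNA2 and 1 in the mean. With shRNA1 the count was also 0 without shRNA1 replicate 1, and with shRNA2 it was 1 without control replicate 0 and without replicate 1 or 2 of either hairpin. The share of all genes that passed with 1 library left out is not reported here. The 5 enzymes other than Decr2 had positive differences with both hairpins. Their median was 0.35 with shRNA1, 0.23 with shRNA2 and 0.29 in the mean, where the median of all genes was 0.0018, 0.0046 and -0.0006. The hairpins were set against the same 3 controls. Over the 9 libraries these 5 enzymes were also correlated with one another (r from 0.54 to 0.905). The share of all genes with positive differences with both hairpins is not reported here. In the mean comparison, all 6 hairpin libraries lay above all controls for Decr1, Pecr and Ech1, which was so for 12% of all genes, and below them for Decr2, which was so for 10.9%.

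The hairpins differed from each other in Decr2 and in no other of the 6 enzymes by this test. Decr2 was lower with shRNA2 than with shRNA1 by a log2 difference of -1.66 (SE 0.23, limma adjusted p = 0.0233), while 0.455% of all genes passed in this comparison (0.232% lower). For the other 5 the difference of shRNA2 over shRNA1 was 0.02 for Decr1 (95% interval -0.15 to 0.18), 0.07 for Pecr (-0.23 to 0.36), 0.04 for Eci1 (-0.17 to 0.24), -0.12 for Eci2 (-0.50 to 0.26) and -0.03 for Ech1 (-0.29 to 0.23), with adjusted p-values of 0.903 or above. As folds, these intervals reach 1.28 in Pecr at their upper end and 0.706 in Eci2 at their lower end. The Decr2 difference kept its size, between -1.84 and -1.49, when 1 library was left out. It missed the threshold when control replicate 1 or 2 was left out (limma adjusted p = 0.0591 and 0.0516), when shRNA1 replicate 1 or 2 was (0.0804 and 0.12), and when any shRNA2 replicate was (0.0555, 0.137 and 0.0708).

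Averaged over groups, the libraries numbered 0 differed most from the others in Eci2. Within each group, library 0 exceeded the mean of libraries 1 and 2 for Eci2 by 0.31 (control), 0.55 (shRNA1) and 0.32 (shRNA2). For Ech1 the same differences were 0.03, 0.36 and 0.19, and for Decr1 they were -0.02, 0.18 and 0.06. Averaged over groups the difference was 0.40 for Eci2, 0.19 for Ech1, 0.10 for Eci1, 0.07 for Decr1, 0.02 for Pecr and -0.15 for Decr2. Over all genes the median was 0.0064 and the quartiles were -0.15 and 0.17. Among these enzymes only Eci2 differed by more than 0.3 in either direction, which was so for 23.7% of all genes. The part of the number in each result was not tested beyond the block and the comparison without these libraries.

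**Figure D3:**
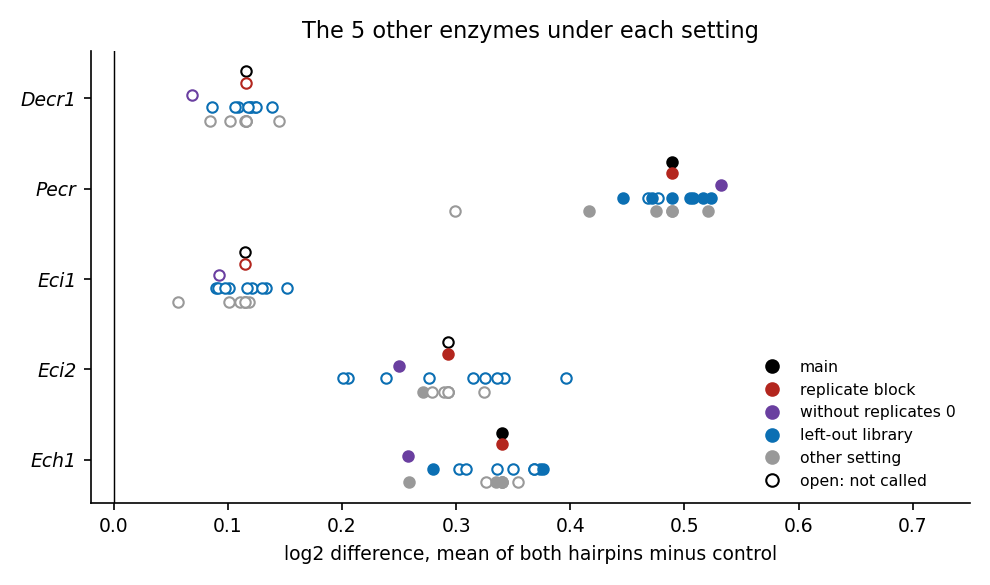
Log2 difference of the mean of both hairpins from control (x axis) for the 5 enzymes other than Decr2 under the main setting, the replicate block, without the libraries numbered 0, with 1 library left out, and under other settings; filled points passed an adjusted p of 0.05. All values lie above 0; Pecr is mostly filled, Ech1 is filled in part, and Decr1 and Eci1 are open throughout.

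The genes whose pattern over the 9 libraries was nearest to each enzyme were found by Pearson correlation of the log2 values. These values describe 9 libraries that share 3 groups and the replicate numbers, and carry no test. Nearest to Decr2 were Ywhah, a 14-3-3 protein gene (r = 0.984), Ppp1cc, a catalytic subunit of protein phosphatase 1 (0.972), and Zcchc10 (0.969). Like Decr2 they were lowest with shRNA2, although by less: Ywhah stood at -0.22 with shRNA1 and -0.55 with shRNA2, Ppp1cc at -0.24 and -0.52, and Zcchc10 at -0.20 and -0.54. Nearest to Pecr were Mpnd (0.983), Sat2 (0.975) and Mib2 (0.968). Nearest to Ech1 were Fam122a (0.988), Rhbdf2 (0.983) and Lemd2 (0.979), and nearest to Eci2 were Fbxo7 (0.989), Akr1b8 (0.987) and Pyroxd2 (0.986). Nearest to Decr1 were Gpr137, Cystm1 and Kctd13 (0.957 to 0.963), and nearest to Eci1 were Sdhaf4, Ostm1 and Fam214a (0.934 to 0.947). Among the enzymes themselves Decr1 and Ech1 were most alike (0.905), and Decr2 correlated negatively with each of the other 5, from -0.34 with Eci2 to -0.79 with Pecr.

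The auxiliary enzymes feed the main oxidation cycles, which were examined as gene lists without the 6 enzymes. In the mean of both hairpins, 0 of 17 measured peroxisomal β-oxidation genes passed by limma, and the median was 0.12. At an unadjusted p under 0.05, 5 were higher, among them Amacr and Hacl1, and 1 was lower (Nudt19), where 17.5% of all genes were higher and 15.7% lower at that level. Amacr, a racemase for branched chains, was at 0.37 (SE 0.11, limma adjusted p = 0.0517), and Hsd17b4, a bifunctional enzyme of the cycle, at -0.05 (SE 0.07). Under the replicate block 4 passed, all higher, among them Amacr and Hacl1, where 30.3% of all genes passed in either direction. Without shRNA1 replicate 0 the list had 2 higher and 1 lower. It had 1 higher without control replicate 0 or shRNA1 replicate 1. With shRNA2 alone Crot, a carnitine transferase, rose by 0.29 (SE 0.07, adjusted p = 0.0296). The genes of this list named here other than Amacr were singled out after their values were seen.

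Of 28 mitochondrial β-oxidation genes, 4 rose and 1 fell in the mean of both hairpins, with a median of 0.13. Over all genes 9.69% were higher and 7.89% lower. Cpt1c, a carnitine palmitoyltransferase, rose by 0.87 (SE 0.20) and Acot2, a thioesterase, by 0.51 (SE 0.14). Acadsb, which acts on branched short chains, rose by 0.35 (SE 0.10) and Acadl, the long-chain dehydrogenase, by 0.27 (SE 0.07). The difference of Acot2 was 0.30 with shRNA1 (limma adjusted p = 0.253) and 0.72 with shRNA2 (0.0212). Acadsb passed with neither hairpin alone (limma adjusted p = 0.0773 and 0.104). The fallen gene was Acad9, at -0.20 (SE 0.06, adjusted p = 0.0495), named after its value was seen. Hadha and Hadhb, the trifunctional protein, were at -0.08 and -0.13 and did not pass. They too were singled out afterwards. Hadhb was at 0.05 with shRNA1 and -0.31 with shRNA2 (limma adjusted p = 0.0569, or 0.0376 with the replicate block). Under the replicate block 7 rose and 2 fell, where 30.3% of all genes passed in either direction. Without control replicate 1 or 2, 0 rose, and 2 rose without control replicate 0, without replicate 2 of either hairpin or without shRNA1 replicate 1. The count of fallen genes was 0 on leaving out any 1 library other than the replicate 0 of each hairpin, and 3 without shRNA1 replicate 0.

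The peroxins build peroxisomes and bring these enzymes into them. Of 19 peroxisome biogenesis genes 3 rose and 0 fell in the mean, with a median of 0.15. Over all genes 9.69% were higher and 7.89% lower. Pex7, the import receptor for the second targeting signal, rose by 0.51 (SE 0.09, adjusted p = 0.00711), Pex5, the receptor for the C-terminal signal, by 0.26 (SE 0.07, adjusted p = 0.0287), and Pex19, which inserts membrane proteins, by 0.29 (SE 0.08, adjusted p = 0.0382). Pex5 passed with neither hairpin alone (limma adjusted p = 0.0507 and 0.0677). Pex19 passed with shRNA1 (0.0498) and not with shRNA2 (0.114). Under the replicate block 5 rose, where 30.3% of all genes passed in either direction. Without control replicate 1 or 2, 1 rose.

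The structural relatives of the 6 enzymes were counted next. Eci1, Eci2 and Ech1 belong to the crotonase family, of which 9 other genes were measured. In the mean 4 of the 9 rose and 0 fell, with a median of 0.35. Over all genes 9.69% were higher and 7.89% lower. Echdc3 rose by 0.92 (SE 0.10), Echdc1, which removes ethylmalonyl-CoA, by 0.35 (SE 0.05), Hibch, of valine breakdown, by 0.49 (SE 0.08), and Auh, of leucine breakdown, by 0.44 (SE 0.11). Auh passed with shRNA1 (limma adjusted p = 0.0324) and not with shRNA2 (0.0697). The block gave 5 risen, where 30.3% of all genes passed in either direction, and without control replicate 1 or 2 there were 3. Decr2, Decr1 and Pecr belong to the short-chain dehydrogenase and reductase family, of which 26 other genes were measured. Here 2 rose (Dhrs7 by 1.22, SE 0.11, and Cbr4 by 0.33, SE 0.10), 1 fell (Rdh13 by 0.27, SE 0.07) and the median was 0.00. The shares of all genes were the same 9.69% and 7.89%. Cbr4 passed with neither hairpin alone (limma adjusted p = 0.16 and 0.05004). Rdh13 passed with shRNA2 (0.0238) and not with shRNA1 (0.12). With the block 5 rose and 3 fell, against the same 30.3% of all genes. Leaving out any 1 library other than shRNA2 replicate 0 left 1 risen gene, and leaving out that library gave 3. The count of fallen genes was 0 without any 1 of the controls or shRNA1 replicate 2, and 4 without shRNA1 replicate 0. Echs1 and Hadha are counted in the crotonase and the mitochondrial lists, Ehhadh in the crotonase and the peroxisomal lists, and Hsd17b4 and Hsd17b10 in the reductase and an oxidation list.

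Genes of the PPAR axis, which controls many fatty acid oxidation genes in liver and muscle, were mostly not listed: 8 of 23 were measured, and Ppara, Pparg and Ppargc1a are not analysed here. In the mean 2 of the 8 rose and 0 fell, with a median of 0.02. Over all genes 9.69% were higher and 7.89% lower. Ppard, the receptor PPAR delta, rose by 0.55 (SE 0.12, adjusted p = 0.0144) and Rxrb, one of its partners, by 0.26 (SE 0.08, adjusted p = 0.0484). Rxrb passed with shRNA1 (limma adjusted p = 0.0485) and not with shRNA2 (0.177). Under the replicate block 2 rose and 1 fell, where 30.3% of all genes passed in either direction. Without the 3 libraries numbered 0, 3 rose and 2 fell, where 41.4% of all genes passed. Without control replicate 1 or 2, 0 rose, and 1 rose without control replicate 0, shRNA1 replicate 1 or any 1 of the shRNA2 libraries.

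Of 15 measured genes for making unsaturated chains, 3 rose, 2 fell and 10 did not pass in the mean (over all genes 9.69% were higher and 7.89% lower), with a median of -0.02. Scd1, the stearoyl-CoA desaturase, rose by 0.65 (SE 0.09, adjusted p = 0.00237), Fads6 by 0.95 (SE 0.17; 1.51 with shRNA1 and 0.38 with shRNA2) and the elongase Elovl7 by 0.46 (SE 0.10). Hacd3, a dehydratase of elongation, fell by 0.39 (SE 0.09), and so did Elovl6, at -0.31 (SE 0.09), named after its value was seen. Fads6 and Elovl7 passed with shRNA1, and with shRNA2 they did not (limma adjusted p = 0.25 and 0.0799). Without control replicate 1 or 2, 2 rose. The count of fallen genes was 0 without any 1 of the controls, 1 without shRNA1 replicate 2 or shRNA2 replicate 0 or 1, and 4 without shRNA1 replicate 0.

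Decr2, Decr1 and Pecr use NADPH. Of 15 measured genes of its supply, 4 rose, 3 fell and 8 did not pass in the mean, against the same 9.69% and 7.89% of all genes, with a median of -0.04. Aldh1l2 and Mthfd2, folate enzymes of mitochondria, rose by 1.77 (SE 0.16) and 1.08 (SE 0.26). Pgd, of the pentose phosphate pathway, fell by 0.43 (SE 0.07), and Me2, a mitochondrial malic enzyme, fell by 0.26 (SE 0.06). The other called genes were Me3 and Me1, which rose, and Nadk2, which fell, named after their values were seen; Me1 was at 0.71 with shRNA1 and -0.08 with shRNA2. Mthfd2, Pgd and Me2 passed with shRNA2, and with shRNA1 they did not (limma adjusted p = 0.0611, 0.0643 and 0.05004). Under the replicate block 6 rose and 4 fell, where 30.3% of all genes passed in either direction. Without control replicate 1 or 2, 1 rose and 1 fell, and without shRNA2 replicate 1, 1 fell.

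**Figure D4:**
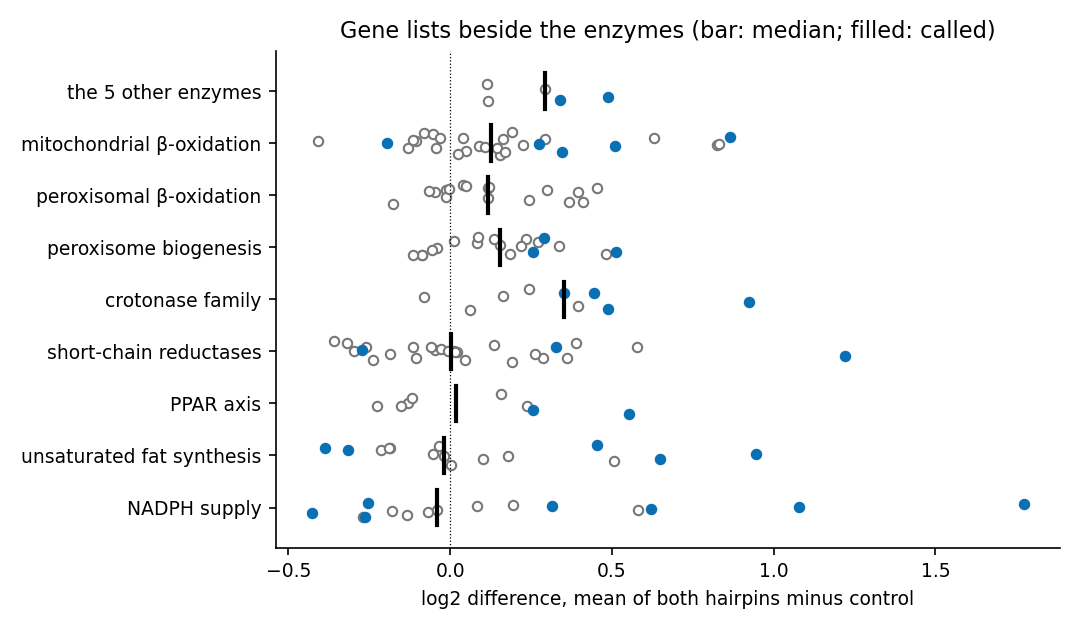
Log2 difference of the mean of both hairpins from control (x axis) for the 5 enzymes other than Decr2 and for the genes of 8 lists (rows); filled points passed an adjusted p of 0.05 and the black bar is the median of the row. The medians of the 5 enzymes (0.29) and of the crotonase family (0.35) are the 2 highest of the 9 rows, and the medians of the PPAR, synthesis, reductase and NADPH rows lie near 0.

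In the authors' deposited table Decr2 was called lower with each hairpin (adjusted p = 0.0116 and 0.00104), and Pecr was called higher with shRNA2 (adjusted p = 0.0376) and not with shRNA1 (0.0653). The same deposited table gave Ech1 adjusted p-values of 0.0815 and 0.103, and 0.206 or above for Decr1, Eci1 and Eci2.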

How the data were processed

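The file used was 1 table of 10762 genes with a log2 value per library (9 libraries, 3 groups of 3) and the authors' own comparisons. Kallisto, FastQC and limma are named, without versions, in the submitters' processing notes; the sources used here do not give the build, filters or scaling. The log2 values were deposited by the authors, and 2 to the power of them summed to between 969465 and 1045849 per library. Per the file headers the table also holds fold changes and adjusted p-values of the authors, which are quoted only as theirs. Column codes name the control but not the hairpins: a code was assigned to shRNA1 or shRNA2 because its difference from control lay within 0.05 of the fold changes so headed in 99.95% and 99.7% of genes, so exchanged headings would exchange the hairpin names. 1 unnamed column with 19 values was not used. Symbols were matched by Ensembl identifier for 10759 genes. Library depth is unknown, so precision is the spread between libraries.

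The values were fitted as deposited with limma 3.58.1 in R 4.3.3, with a mean per group, all 9 libraries, an intensity trend, 3.295 prior and 6 residual degrees of freedom, and Benjamini-Hochberg adjustment over all genes; calls were made at an adjusted p under 0.05. The script was tested on simulated data. The deviations of same-numbered libraries from their group means correlated positively across genes in all 9 pairs (0.126 to 0.644). The 18 pairs of different number ranged from -0.629 to 0.531, and 5 of 9 libraries correlated best with their own number. Library 1 of shRNA1 correlated at 0.531 with library 2 of shRNA2 and at 0.126 with library 1 of shRNA2. The main fit held no pairing, because no label says that the numbers mark a shared culture, day or batch. Pairing by the digits in the sample titles was used only in the replicate block. The alternatives were that replicate block, only the groups compared, no trend, robust priors, library weights, median centring, quantile normalisation, a pseudocount of 1, removal of the lowest 25% of genes, and leaving out each library or the 3 numbered 0. The enzymes, lists and rules were chosen with earlier results of these data known. Named were the 6 enzymes, from each list up to 4 called genes by adjusted p in the mean of both hairpins (where none was called, the 2 with the smallest p), the 3 nearest genes by correlation (leaving out provisional Gm and Rik names), and the neighbours of Decr2. Protein features were planned and were not analysed here. Values of some genes that the rule names are not reported here.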

Additional observations from a re-analysis of the deposited data

Results flagged for a closer look

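The hairpins differed from each other in 3 of the genes examined, of which Idh1 and Me1 come from the list of NADPH supply (2 of 15 measured, where 0.455% of all genes passed). Decr2 was -1.66 on the log2 scale in shRNA2 relative to shRNA1. Idh1, a cytosolic and peroxisomal NADPH source, had log2 values of 7.10, 6.86 and 6.80 in control libraries 0, 1 and 2, then 6.47, 6.52 and 6.55 with shRNA1, and 7.15, 7.24 and 7.17 with shRNA2. All shRNA1 libraries lay below the controls and all shRNA2 libraries above them. Idh1 fell with shRNA1 by 0.41 (limma adjusted p = 0.0189), was 0.27 higher with shRNA2 (0.0696), and was 0.68 higher in shRNA2 than in shRNA1 (SE 0.09, adjusted p = 0.0185). Me1, the cytosolic malic enzyme, had log2 values of 7.03, 7.01 and 6.85 in the controls, 7.63, 7.65 and 7.72 with shRNA1, and 7.05, 6.81 and 6.78 with shRNA2. Me1 rose with shRNA1 by 0.71 (adjusted p = 0.00307), stood at -0.08 with shRNA2 (0.613), and differed between the hairpins by -0.78 (SE 0.09, adjusted p = 0.0121). Its rise in the mean of both hairpins therefore rests on shRNA1. Without shRNA1 replicate 1 or 2 or shRNA2 replicate 1 or 2 the difference between the hairpins did not pass for Idh1 (adjusted p = 0.0835, 0.0915, 0.118 and 0.083) or Me1 (0.0804, 0.0719, 0.0941 and 0.0777), and for Idh1 also not without shRNA2 replicate 0 (0.0555). With only the groups compared both missed the threshold (0.0504 and 0.0585). The cause of these differences was not tested.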

How the results depend on the processing

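Every setting that could be run kept the direction of all 6 enzymes against control. The count of enzymes passing with shRNA1 was 1; it was 4 with the replicate block, 4 with library weights, 4 without the 3 libraries numbered 0, 2 with no intensity trend and 0 with the lowest 25% of genes removed, a filter that removes Decr2 and Pecr. With shRNA2 the count of 2 became 4 with library weights, 4 without the libraries numbered 0, 1 with quantile normalisation and 0 with the low filter. It was 3 with the replicate block or only the groups compared. In the mean the count of 3 became 1 with quantile normalisation and 1 with the low filter, 2 with no intensity trend or centred libraries, and 4 with the replicate block, library weights or without the libraries numbered 0. Between hairpins the count of 1 became 0 with the low filter and 0 with only the groups compared, where Decr2 kept -1.66 (adjusted p = 0.116). The share of all genes that passed moved with the setting too. With shRNA1 it was 12.4% in the main fit and 24.6% with the replicate block. It was 34.5% without the libraries numbered 0 and 46.8% with library weights. In the same order it was 12.9%, 24%, 37.3% and 40.9% with shRNA2. Beyond the shares given above, none is reported here, so these counts are not read as a result about the enzymes. Leaving out 1 library gave counts of 0 to 1 (shRNA1), 1 to 3 (shRNA2), 1 to 3 (mean) and 0 to 1 (between hairpins). The Decr2 differences were then -1.23 to -0.90 (shRNA1), -2.91 to -2.56 (shRNA2) and -1.84 to -1.49 (between hairpins). Over all settings that kept Decr2, they reached -0.79 with shRNA1 (library weights). With a pseudocount of 1 they reached -2.30 with shRNA2 and -1.32 between hairpins, and the other ends of the ranges did not change. The replicate block changed the calls given beside Pecr, Ech1 and Eci2 and no other of the 6 enzymes.

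Differences between the hairpins near 0, none of them called, changed sign when 1 library was left out: they ranged from -0.030 to 0.076 for Decr1, -0.018 to 0.12 for Pecr, -0.038 to 0.082 for Eci1, -0.23 to 0.062 for Eci2 and -0.097 to 0.090 for Ech1. With library weights that of Eci1 was -0.0055 and that of Ech1 0.047, and without the libraries numbered 0 that of Ech1 was 0.028. The cause was not tested. Read depth is unknown, so what it limits cannot be stated.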
